A study of Mus musculus with 18 samples.

Results

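Sorted tumor cells of Kdm3a knockout clone 2 (Kdm3aKO2) of the mouse pancreatic tumor line 6694c2 were compared with sorted tumor cells of the wild-type (WT) line. The members were the 3 Kdm3aKO2 and 3 WT libraries of 6694c2 among the 18 RNA-seq libraries of the series, and every gene whose TPM averaged 1 or more over these 6 libraries, which left 12839 of 24493 genes. TPM is a transcript abundance corrected for length that sums to the same total in every library. The series holds 2 tumor lines, 6694c2 and 6419c5, and for each line 2 knockout clones and WT with 3 libraries each. All groups were on the C57BL/6 strain, grew as implants under the skin and were sorted before total RNA was extracted with a Qiagen RNeasy micro kit, and no group was given a treatment. The marker used for the sort, the way the gene was disrupted and the age of the mice are not given in the sources used here. Columns headed with B in the deposited table were taken as clone 2. The 3 Kdm3aKO2 libraries come from 1 clone, so clone and knockout cannot be told apart within them. No label states that replicate libraries stem from different tumors, so p-values measure only the spread between replicate libraries. That spread was pooled over all 6 groups of the series and not taken from these 6 libraries alone.

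KDM3A is a demethylase that removes methyl groups from lysine 9 of histone H3, a modification found on silent chromatin, and it acts as a coactivator of transcription factors. In pancreatic tumors the innate defense genes that interferons switch on include chemokines that draw T cells and the machinery that shows peptides to them. Interferon receptors signal through JAK kinases to transcription factors that turn on IRF1, itself a transcription factor, a large set of GTPases and the coactivators NLRC5 and CIITA, which drive the MHC class I and class II genes.

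Replicates correlated at r = 0.986, 0.958 and 0.954 in Kdm3aKO2 and at 0.970, 0.957 and 0.923 in WT on the log2(TPM + 1) scale, while libraries of the 2 groups correlated at 0.902 to 0.949. Depth is unknown because the values are TPM without counts. Kdm3aKO2 replicates 1 and 2 lay closest of the 18 replicate pairs of the series: the robust SD of their log2 difference over 418 genes of at least 300 TPM was 0.0483, against 0.0862 for the next pair. These 2 libraries may not be independent samples, so counts are also given with both averaged and counted as 1 sample, an alternative chosen after seeing the data. Kdm3aKO2 replicate 3 stood apart in markers of other cells: the mean log2(TPM + 1) of 10 macrophage markers was 4.12, 4.19 and 7.08 in Kdm3aKO2, against 4.55, 6.15 and 2.97 in WT. The microRNA entry Mir6236 took 6.44 to 9.57% of all TPM in Kdm3aKO2 and 8.57 to 17.4% in WT. TPM sum to a fixed total, so the TPM of other genes move with that share. The median log2 change of all genes tested was 0.18, and 0.11 with Mir6236 removed, where 1002 genes were called higher and 651 lower.

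Kdm3a itself (chr6:71588972-71632990, minus strand, in GENCODE M21 on GRCm38, as for all genes below) had 28.8, 30.2 and 25.2 TPM in Kdm3aKO2, against 39.9, 38.9 and 67.6 TPM in WT. All Kdm3aKO2 libraries were below all WT libraries, and the log2 change was -0.73 ± 0.21 SE, limma adjusted p = 0.027. The call ended in 8 of 21 alternatives, among them leaving out WT replicate 3 or any 1 of the Kdm3aKO2 libraries, with an adjusted p of up to 0.12. Kdm3aKO1, the other clone of the line, had 26.2, 26.4 and 29.8 TPM. The edited stretch of the gene is not given in the sources used here, so the remaining transcript does not check the edit. Among 24 tested enzymes and readers of histone H3 lysine 9 methylation, 3 were called higher and 2 lower, beside 11.2% of all genes called higher and 4.14% called lower. Without any 1 Kdm3aKO2 library 1 was called higher and 0 lower, and without WT replicate 3 these counts were 7 and 0. The paralog Kdm3b, a demethylase of the same family, was called higher (log2 change 0.30, limma adjusted p = 0.033), but the call ended in 13 of 21 alternatives.

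In all, 1967 of 12839 genes (15.3%) were called at an adjusted p below 0.05 in limma, 1436 higher (11.2%) and 531 lower (4.14%). With Kdm3aKO2 replicates 1 and 2 averaged, 1189 genes were called, 806 higher and 383 lower, and 1186 of them were among the 1967. Leaving out Kdm3aKO2 replicate 1 or 2 gave 1200 and 1186 calls. The balance of directions depends on scaling: under median-of-ratios scaling, which moves the median of all genes to -0.03, 624 genes were called higher and 1123 lower, and under quantile normalization 663 and 930. At least a 4-fold difference was seen for 130 genes called higher and 66 called lower, and at least a 16-fold difference for 26 higher and 3 lower. Listed at 0.5 TPM or less in every WT library and at 5 TPM or more in every Kdm3aKO2 library were 4 genes, Apol10b, Apol6, Serpina3g and Slfn3, and in the reverse direction 5 genes, Fzd8, Kctd15, Tcaf1, Trib2 and Wnt7a. These 9 names were chosen after their values were seen.

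The interferon-induced GTPases, which attack the vacuoles of intracellular pathogens, formed the group with the highest median change of the lists described here. All 16 tested members rose, with a median log2 change of 4.05, and none of their Kdm3aKO2 values overlapped WT, beside 24.2% of all genes with Kdm3aKO2 entirely above WT. In bulk RNA, fewer cells of a type and less RNA per cell cannot be told apart. Iigp1, an immunity-related GTPase, had 230.0, 251 and 229 TPM in Kdm3aKO2, against 1.83, 3.44 and 6.39 TPM in WT. The log2 change was 5.71 ± 0.47 SE, limma adjusted p = 7.0e-07, a 60.95-fold difference of the means. Gbp4, a guanylate-binding protein, had 44.7, 47.8 and 40.7 TPM in Kdm3aKO2, against 0.426, 0.609 and 0.985 TPM in WT (log2 change 4.77 ± 0.18 SE, limma adjusted p = 6.4e-10). Both were low in every WT library and abundant in every Kdm3aKO2 library. Gbp2, the most abundant member, had 338, 348 and 360.0 TPM in Kdm3aKO2, against 13.1, 26.1 and 16.8 TPM in WT (log2 change 4.21 ± 0.26 SE, limma adjusted p = 4.4e-08). The smallest rise of the group was that of Irgm1, a regulator of the other immunity-related GTPases, with 149, 143 and 167 TPM in Kdm3aKO2, against 20.1, 16.02 and 23.6 TPM in WT (log2 change 2.89 ± 0.15 SE, limma adjusted p = 5.9e-09). The median over all genes tested was 0.18. The count was 16 under every scaling, without Kdm3aKO2 replicate 3 and with replicates 1 and 2 averaged. Tgtp1 and Tgtp2, T cell specific GTPases with near-identical transcripts, rose by 4.76 and 5.02 on the log2 scale, but reads may have been split between them, so their separate values are uncertain. T and NK cell markers had mean log2(TPM + 1) levels of 0.72 to 1.36 in Kdm3aKO2, against 0.18 to 0.35 in WT, and their part in these rises was not tested.

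**Figure D1:**
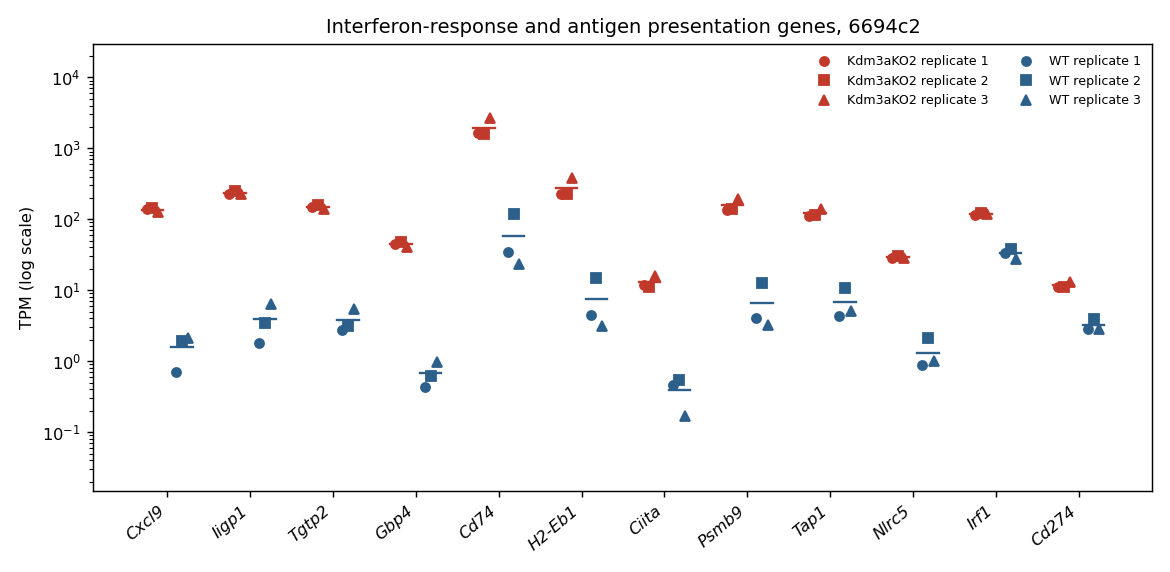
TPM on a log axis of 12 genes of interferon response and antigen presentation, with Kdm3aKO2 libraries left of WT libraries, a marker shape for each replicate and a bar at each group mean. For Cxcl9 the Kdm3aKO2 libraries sit between 127 and 142 TPM, and the highest WT library is at 2.13 TPM.

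Promoters of 4 raised genes of these lists are shown because they hold known interferon or class II motifs: the 120 bases before the RefSeq start (GRCm38.p6), read 5′ to 3′ on the gene's strand. Capitals mark the interferon-stimulated response element (GAAA, any 2 bases, GAAA) and the gamma-activated site TTCNNNGAA in the GTPase genes, and the class II Y box CTGATTGG in the MHC genes. Tgtp2 lies at chr11:49064213-49064332 and Tgtp1 at chr11:48992247-48992366, both minus strand. H2-Eb1 lies at chr17:34305747-34305866, plus strand, and H2-Aa at chr17:34287824-34287943, minus strand.
Tgtp2: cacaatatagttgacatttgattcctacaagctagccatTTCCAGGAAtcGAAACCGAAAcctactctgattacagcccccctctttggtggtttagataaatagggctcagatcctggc
Tgtp1: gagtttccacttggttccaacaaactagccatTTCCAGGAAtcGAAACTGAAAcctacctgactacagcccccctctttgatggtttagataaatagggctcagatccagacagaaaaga
H2-Eb1: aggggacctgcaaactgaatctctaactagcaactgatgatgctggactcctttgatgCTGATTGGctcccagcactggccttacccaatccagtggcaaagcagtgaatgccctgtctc
H2-Aa: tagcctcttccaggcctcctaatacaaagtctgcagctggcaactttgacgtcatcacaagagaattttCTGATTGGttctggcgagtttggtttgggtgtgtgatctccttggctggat

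In Tgtp2 the gamma-activated site begins 81 bases and the response element 70 bases before the start, and in Tgtp1 they begin 88 and 77 bases before it. The Y box begins 62 bases before the start in H2-Eb1 and 51 in H2-Aa. Both strands of the 250 bases before to 50 after each start were searched. The response element was in 9 of the 10 GTPase promoters in the table, in 14 of 22 antiviral effector promoters and in 3.44% of all 32851 promoters. Among 82 promoters of genes called higher by at least 2 on the log2 scale, 32.9% held the response element and 26.8% the gamma-activated site, beside 3.83% and 8.41% of the 9777 promoters of tested genes. Of the 42 promoters of genes called lower by at least 2 on the log2 scale, 0 held the response element or the gamma-activated site. The Y box was in 7 of 19 MHC class I list promoters, in 2 of 9 class II list promoters, in 3 of the 42 promoters of genes called lower by at least 2 on the log2 scale, in 6.38% of the promoters of tested genes and in 4.10% of all promoters. A match is a description of the letters and not of binding.

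MHC class II genes, which present peptides to CD4+ T cells, rose with a median log2 change of 3.33. Of 13 tested members, 9 were called higher and 0 lower, beside 11.2% and 4.14% of all genes. Ciita, the coactivator that controls the group (chr16:10480059-10528418, plus strand), had 11.8, 11.1 and 16.1 TPM in Kdm3aKO2, against 0.457, 0.536 and 0.167 TPM in WT. Its log2 change was 3.33 ± 0.27 SE, limma adjusted p = 6.6e-07. Cd74, the invariant chain that guides class II molecules, had 1632, 1608 and 2633 TPM in Kdm3aKO2, against 34.7, 117 and 23.7 TPM in WT. The lowest Kdm3aKO2 library lay above the highest WT library, and the log2 change was 5.34 ± 0.51 SE, limma adjusted p = 3.9e-06. H2-Aa, a class II chain (chr17:34282744-34287823, minus strand), had 305, 299.7 and 593 TPM in Kdm3aKO2, against 8.94, 23.4 and 5.81 TPM in WT (log2 change 5.01 ± 0.55 SE, limma adjusted p = 1.8e-05). H2-DMb1, part of the complex that loads peptides, had 129, 119 and 149.8 TPM in Kdm3aKO2, against 5.65, 6.36 and 3.095 TPM in WT (log2 change 4.51 ± 0.25 SE, limma adjusted p = 1.2e-08). Of the DNA-binding partners of CIITA, Rfx5 rose by 0.53 on the log2 scale, a call that ended under median-of-ratios scaling, while Rfxap and Rfxank had log2 changes of -0.09 and 0.04. Macrophages also carry class II RNA, and Ctss, a protease of the class II pathway abundant in them, was not called, at 61.99, 61.6 and 349 TPM in Kdm3aKO2, against 42.4, 100.8 and 14.7 TPM in WT. The macrophage marker levels were 4.12, 4.19 and 7.08 in Kdm3aKO2, against 4.55, 6.15 and 2.97 in WT.

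The MHC class I and peptide loading genes had a median log2 change of 1.94. Called higher were 19 of 22 tested members and called lower 0, beside 11.2% and 4.14% of all genes. Nlrc5, the coactivator of class I genes, had 28.7, 30.8 and 28.5 TPM in Kdm3aKO2, against 0.872, 2.09 and 1.01 TPM in WT. Its log2 change was 3.74 ± 0.17 SE, limma adjusted p = 2.6e-09. Psmb9, a proteasome subunit that changes which peptides are cut, had 135, 139.7 and 194 TPM in Kdm3aKO2, against 4.07, 12.8 and 3.195 TPM in WT (log2 change 4.55 ± 0.33 SE, limma adjusted p = 2.1e-07). Neither gene overlapped between the groups. Tap1, a subunit of the peptide transporter, had 112, 114 and 138 TPM in Kdm3aKO2, against 4.34, 10.6 and 5.17 TPM in WT (log2 change 4.06 ± 0.25 SE, limma adjusted p = 3.6e-08). H2-Q7 and the class I gene H2-Q4 rose by 4.4 and 3.49 on the log2 scale, values that are uncertain because the H2-Q genes are near-identical copies. The 3 members that were not called were the general chaperones of the endoplasmic reticulum, Calr, Canx and Pdia3, with log2 changes of 0.18, -0.03 and 0.61.

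Among 19 interferon signaling genes, 9 were called higher and 0 lower, beside 11.2% and 4.14% of all genes. Their median log2 change was 0.42. Irf1, a transcription factor induced by interferon, had 116, 122 and 118 TPM in Kdm3aKO2, against 33.6, 38 and 27.5 TPM in WT (log2 change 1.83 ± 0.10 SE, limma adjusted p = 1.6e-08). The feedback inhibitors Socs1 and Usp18 rose by 2.50 and 2.58 on the log2 scale, and Stat2, a transcription factor of type I signaling, rose by 1.68. The receptor chains Ifngr1 and Ifngr2 had log2 changes of 0.35 and 0.21 and were not called (limma adjusted p = 0.1 and 0.096). Antiviral effectors rose in 26 of 30 tested members with 0 lower and a median log2 change of 1.77. Zbp1, a sensor of unusual nucleic acids, had 53.8, 63.97 and 74.3 TPM in Kdm3aKO2, against 6.27, 8.05 and 3.68 TPM in WT (log2 change 3.26 ± 0.28 SE, limma adjusted p = 1.0e-06). Bst2, which tethers virus particles to the cell, had 292, 286 and 311 TPM in Kdm3aKO2, against 76.7, 84.5 and 51.7 TPM in WT (log2 change 2.08 ± 0.18 SE, limma adjusted p = 1.6e-06). The members not called were Mx1, Rsad2, Dhx58 and Samd9l. Samd9l, a restriction factor, overlapped between the groups, at 56.5, 76.4 and 43.4 TPM in Kdm3aKO2, against 17.6, 7.63 and 77.3 TPM in WT. With Kdm3aKO2 replicates 1 and 2 averaged, 9 class II, 19 class I, 7 interferon signaling and 26 antiviral genes were called higher.

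Of 19 chemokines and related factors tested, 5 rose and 1 was called lower, beside 11.2% of all genes called higher and 4.14% lower. Cxcl9, a ligand of the CXCR3 receptor on activated T cells (chr5:92321347-92328079, minus strand), had 139, 142 and 127 TPM in Kdm3aKO2, against 0.696, 1.93 and 2.13 TPM in WT. This was the largest rise by log2 change among the genes named by rule, at 5.78 ± 0.39 SE, limma adjusted p = 8.9e-08, and an 85.98-fold difference of the means. The other ligands of that receptor rose too: Cxcl10 had 94.7, 111 and 89.8 TPM in Kdm3aKO2, against 3.25, 4.36 and 5.596 TPM in WT (log2 change 4.22 ± 0.27 SE, limma adjusted p = 6.7e-08), and Cxcl11 rose by 1.88 on the same scale. Ccl5, which draws T cells, rose by 2.82, and Csf1, the growth factor of macrophages, rose by 1.78, on the log2 scale. Csf2, the growth factor of granulocytes and macrophages, was called lower (log2 change -1.34 ± 0.40 SE, limma adjusted p = 0.033), a call that ended without WT replicate 1 or 3 and without Kdm3aKO2 replicate 3. Ccl8, a chemokine made by macrophages, followed the macrophage markers instead of the groups, at 40.02, 39.3 and 789 TPM in Kdm3aKO2, against 72.9, 237 and 10.6 TPM in WT.

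Among 14 tested ligands and other genes that restrain or help T cells, 7 rose and 1 was called lower, beside 11.2% and 4.14% of all genes. Cd274, which encodes the inhibitory ligand PD-L1, had 11.3, 11.3 and 13.1 TPM in Kdm3aKO2, against 2.86, 3.92 and 2.82 TPM in WT (log2 change 1.62 ± 0.20 SE, limma adjusted p = 4.2e-05). Fas, a death receptor, had 16.2, 18.01 and 19.7 TPM in Kdm3aKO2, against 2.71, 2.05 and 2.95 TPM in WT (log2 change 2.41 ± 0.22 SE, limma adjusted p = 1.8e-06). Ido1, the enzyme that breaks down tryptophan, rose by 2.23, Tnfsf10, the death ligand TRAIL, by 1.95, and Vtcn1, the inhibitory ligand B7-H4, by 0.91, on the log2 scale. Nectin2, a ligand of activating and inhibitory receptors, was called lower at a log2 change of -0.50. That call ended in 7 of 21 alternatives, among them leaving out any 1 Kdm3aKO2 library and averaging replicates 1 and 2. Of 12 complement genes, 5 rose and 0 fell. C1s1, a protease of the classical pathway, had 12.2, 10.1 and 17.8 TPM in Kdm3aKO2, against 1.75, 1.59 and 1.66 TPM in WT (log2 change 2.39 ± 0.25 SE, limma adjusted p = 7.5e-06), and Cfb, the protease of the alternative pathway, had 215, 208 and 211 TPM in Kdm3aKO2, against 97.4, 131 and 100.8 TPM in WT (log2 change 0.95 ± 0.15 SE, limma adjusted p = 0.00042). C3, the central component, was called higher at a log2 change of 1.12, a call that ended without WT replicate 1 or without Kdm3aKO2 replicate 3.

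The largest fall by log2 change was that of Piezo2, a channel opened by mechanical force. It had 0.661, 0.776 and 1.196 TPM in Kdm3aKO2, against 37.5, 34.3 and 58.4 TPM in WT. Every Kdm3aKO2 library was near 1 TPM and every WT library above 34 TPM, a log2 change of -4.54 ± 0.19 SE, limma adjusted p = 9.0e-10, with a mean 49.5-fold higher in WT. Of 24 tested mechanical and ion channel genes, 8 fell and 1 rose, beside 4.14% and 11.2% of all genes, with a median log2 change of -0.20. Clic6, an intracellular chloride channel, had 0.561, 0.673 and 0.7505 TPM in Kdm3aKO2, against 31.4, 23.6 and 22.3 TPM in WT (log2 change -4.00 ± 0.16 SE, limma adjusted p = 9.0e-10). Gabrp, a subunit of a receptor for the transmitter GABA, had 3.48, 2.61 and 2.65 TPM in Kdm3aKO2, against 14.1, 13.9 and 17.7 TPM in WT (log2 change -2.05 ± 0.20 SE, limma adjusted p = 5.7e-06), and the potassium channel Kcnk1 fell, with a log2 change of -2.16. Kcnk5, another potassium channel, rose by 1.0 on the log2 scale. The abundant chloride channel gene Clic1 overlapped between the groups and was not called. Without Kdm3aKO2 replicate 3, 5 members were called lower.

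Trib2, a pseudokinase, had 0.2398, 0.108 and 0.342 TPM in Kdm3aKO2, against 17.9, 18.4 and 23.8 TPM in WT (log2 change -4.09 ± 0.20 SE, limma adjusted p = 4.7e-09). Mycn, a MYC family transcription factor, had 0.777, 0.364 and 0.711 TPM in Kdm3aKO2, against 9.84, 11.4 and 11.97 TPM in WT (log2 change -2.91 ± 0.21 SE, limma adjusted p = 1.6e-07). Ube2e2, a ubiquitin conjugating enzyme, Kctd15, an inhibitor of AP-2 factors, and Sall1, a developmental zinc finger factor, fell, with log2 changes of -3.37, -3.30 and -2.61. Mgp, an inhibitor of calcification, had 7.77, 6.32 and 49.96 TPM in Kdm3aKO2, against 80.3, 114 and 110.5 TPM in WT, and its Kdm3aKO2 replicate 3 lay above the other 2. Snord68, a small nucleolar RNA, was listed at 0 in all Kdm3aKO2 libraries, against 6.21, 34.8 and 4.099 TPM in WT. Short entries such as this one and Mir5103 hold uncertain values in a TPM table.

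**Figure D2:**
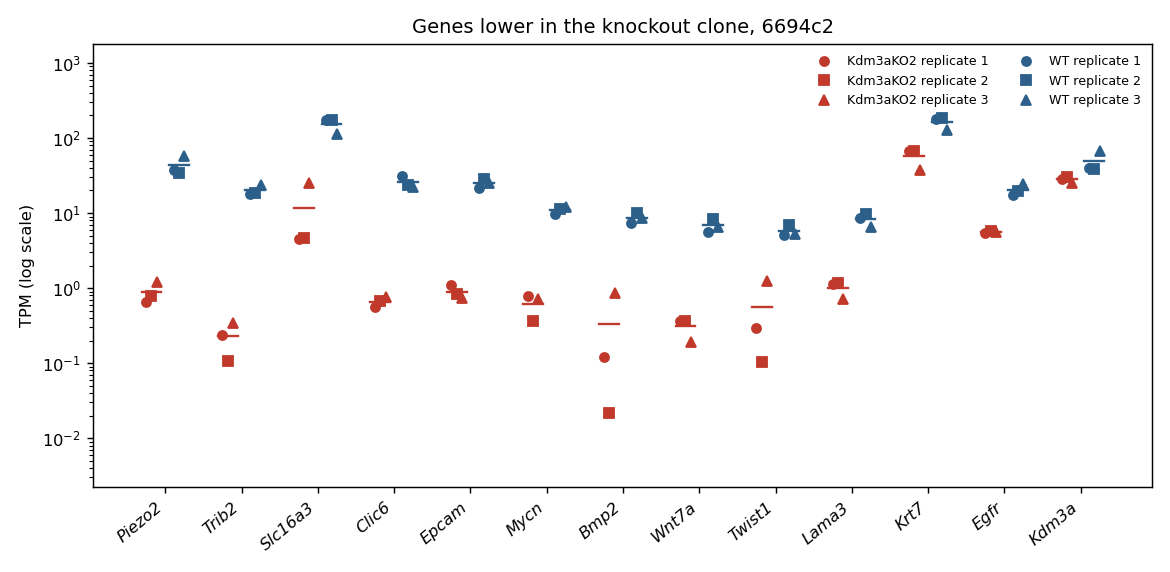
TPM on a log axis of 13 genes called lower, with Kdm3aKO2 libraries left of WT libraries, a marker shape for each replicate and a bar at each group mean. For Piezo2 the Kdm3aKO2 libraries sit between 0.661 and 1.20 TPM, and the WT libraries between 34.3 and 58.4 TPM.

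Epithelial junction genes were called lower in 9 of 23 tested members and higher in 0, beside 4.14% and 11.2% of all genes. Their median log2 change was -0.38. Epcam, an adhesion molecule of epithelia (chr17:87635979-87651129, plus strand), had 1.12, 0.825 and 0.745 TPM in Kdm3aKO2, against 21.6, 28.3 and 25.2 TPM in WT. Its log2 change was -3.78 ± 0.30 SE, limma adjusted p = 5.4e-07. Marveld2, which seals the corners between cells, had 0.505, 0.177 and 0.989 TPM in Kdm3aKO2, against 6.52, 8.32 and 6.94 TPM in WT (log2 change -2.43 ± 0.20 SE, limma adjusted p = 8.3e-07). The tight junction genes Ocln and Cldn6 fell, with log2 changes of -1.99 and -2.19. The list had 12 members with Kdm3aKO2 entirely below WT, beside 7.97% of all genes. Cdh1, the cadherin of epithelial contacts, had 237, 231 and 201 TPM in Kdm3aKO2, against 195, 175 and 219 TPM in WT, and its groups overlapped. With replicates 1 and 2 averaged 9 were called lower, and without WT replicate 3 the list had 1 member called higher and 10 lower.

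Of 16 keratin, laminin and integrin genes, 7 fell and 0 rose. Lama3 and Lamb3, chains of the laminin under epithelia, fell together: Lama3 had 1.13, 1.19 and 0.7198 TPM in Kdm3aKO2, against 8.61, 9.72 and 6.51 TPM in WT (log2 change -2.20 ± 0.22 SE, limma adjusted p = 6.0e-06), and Lamb3 had 15.2, 14.8 and 6.97 TPM in Kdm3aKO2, against 56.7, 59.6 and 38.7 TPM in WT (log2 change -2.03 ± 0.25 SE, limma adjusted p = 4.4e-05). Krt7, a keratin of ducts, had 66.8, 66.98 and 37.7 TPM in Kdm3aKO2, against 178, 186 and 126 TPM in WT (log2 change -1.53 ± 0.21 SE, limma adjusted p = 0.00014). Krt8, Krt18 and Krt19, the abundant keratins of the tumor, had log2 changes of -0.08, -0.13 and -0.33 and were not called. Krt14, a basal keratin, lay lower in every Kdm3aKO2 library, at 35.5, 35.7 and 32.5 TPM in Kdm3aKO2, against 130, 114 and 109 TPM in WT. It did not pass the test (limma adjusted p = 0.056) but was called lower in 4 of 21 alternatives. Among these were the fit with only these 2 groups (limma adjusted p = 0.00046) and median-of-ratios scaling (limma adjusted p = 0.029). Keratinocyte markers were at 1.44 to 1.56 in Kdm3aKO2, against 1.90 to 1.98 in WT, on the log2(TPM + 1) scale, and their part in these falls was not tested. The mesenchymal list of 20 genes had 2 called higher and 4 lower, beside 11.2% and 4.14% of all genes. This list had 5 called higher without WT replicate 3, and 1 without WT replicate 2, Kdm3aKO2 replicate 1 or Kdm3aKO2 replicate 2. Its related factors Twist1 and Twist2 moved apart, Twist1 with 0.293, 0.103 and 1.26 TPM in Kdm3aKO2, against 5.03, 6.85 and 5.19 TPM in WT (log2 change -2.17 ± 0.26 SE, limma adjusted p = 3.9e-05) and Twist2 with 15.8, 12.6 and 13.4 TPM in Kdm3aKO2, against 5.49, 4.54 and 4.94 TPM in WT (log2 change 1.31 ± 0.22 SE, limma adjusted p = 0.00092). Fn1, the matrix protein fibronectin, had 663, 666 and 825 TPM in Kdm3aKO2, against 1159.8, 1339 and 1679 TPM in WT (log2 change -0.95 ± 0.18 SE, limma adjusted p = 0.0029), while Vim, the filament protein vimentin, was not called.

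Hypoxia genes, many of them targets of the oxygen-sensing factor HIF-1, had a median log2 change of -0.34. Of 26 tested members, 12 were called lower and 1 higher, beside 4.14% and 11.2% of all genes. Slc16a3, the exporter of lactate (chr11:120948480-120960868, plus strand), had 4.49, 4.602 and 25.5 TPM in Kdm3aKO2, against 174, 172 and 113 TPM in WT. The groups did not overlap, and the log2 change was -4.01 ± 0.44 SE, limma adjusted p = 1.6e-05. Car9, the carbonic anhydrase at the surface of hypoxic cells, had 83.7, 82.3 and 97.5 TPM in Kdm3aKO2, against 208, 233 and 202 TPM in WT (log2 change -1.28 ± 0.14 SE, limma adjusted p = 1.2e-05). Adm, the vessel peptide adrenomedullin, had 14.7, 11.8 and 11.99 TPM in Kdm3aKO2, against 34.1, 52.3 and 36.4 TPM in WT (log2 change -1.58 ± 0.20 SE, limma adjusted p = 7.4e-05), and the adenylate kinase Ak4 fell, with a log2 change of -2.15. Bnip3 and Ddit4, also used as hypoxia markers, had log2 changes of 0.00 and -0.35 and were not called. The list had 10 to 13 members called lower without any 1 library and 12 with replicates 1 and 2 averaged.

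Of 18 glycolysis genes, 10 were called lower and 0 higher, beside 4.14% and 11.2% of all genes. Their median log2 change was -0.31. Pfkp, a phosphofructokinase, had 30.7, 28.3 and 42.3 TPM in Kdm3aKO2, against 74.7, 96.6 and 81.1 TPM in WT (log2 change -1.31 ± 0.14 SE, limma adjusted p = 1.1e-05). Slc2a1, the glucose transporter, had 275, 279 and 243 TPM in Kdm3aKO2, against 358, 492 and 371 TPM in WT (log2 change -0.60 ± 0.13 SE, limma adjusted p = 0.0057), and Tpi1, triosephosphate isomerase, fell, with a log2 change of -0.49. The count depended on single libraries: 3 members were called without WT replicate 2, 4 without Kdm3aKO2 replicate 1 or 2, 3 without Kdm3aKO2 replicate 3, and 4 with replicates 1 and 2 averaged. Gapdh was called lower at a log2 change of -0.34, a call that ended in 10 of the 20 alternatives that gave it a value.

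Egfr, the receptor of epidermal growth factor (chr11:16752203-16918158, plus strand), had 5.497, 5.76 and 5.64 TPM in Kdm3aKO2, against 17.5, 19.7 and 24.5 TPM in WT. Its log2 change was -1.69 ± 0.21 SE, limma adjusted p = 6.9e-05. Of the 13 tested receptors, ligands and regulators of its family, 3 were called lower and 1 higher, beside 4.14% and 11.2% of all genes. The receptor Erbb3 and the ligand Areg were called lower, at log2 changes of -0.80 and -1.21, the first not without WT replicate 2 or Kdm3aKO2 replicate 2, the second not without WT replicate 1 or 3 or Kdm3aKO2 replicate 3. Erbb2, the partner receptor, had 46.8, 49.2 and 43.00 TPM in Kdm3aKO2, against 50.8, 54.2 and 48.03 TPM in WT and was not called. Genes induced by ERK kinase signaling had 5 of 18 members called lower and 1 higher, and 3 lower without WT replicate 2 or Kdm3aKO2 replicate 3. Dusp4, a phosphatase of that pathway, had 106, 105 and 89.7 TPM in Kdm3aKO2, against 174, 189 and 223 TPM in WT (log2 change -0.95 ± 0.19 SE, limma adjusted p = 0.0033), and Spry2, a feedback inhibitor, fell, with a log2 change of -0.56, whereas Dusp6 and Etv4 had log2 changes of -0.04 and 0.02. Among 19 immediate early genes, 4 were called lower and 0 higher, and 2 lower without Kdm3aKO2 replicate 3. Egr3, a zinc finger factor, had 2.97, 2.79 and 2.28 TPM in Kdm3aKO2, against 10.4, 9.42 and 13.4 TPM in WT (log2 change -1.71 ± 0.20 SE, limma adjusted p = 4.1e-05), and the heat shock gene Hspa1a had 18.1, 18.3 and 16.7 TPM in Kdm3aKO2, against 42.99, 44.7 and 43.6 TPM in WT (log2 change -1.26 ± 0.22 SE, limma adjusted p = 0.0012).

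Klf5, a zinc finger factor of epithelia (chr14:99298691-99315036, plus strand), had 66.6, 70.3 and 65.7 TPM in Kdm3aKO2, against 95.9, 104 and 97.6 TPM in WT. The groups did not overlap, and the log2 change was -0.55 ± 0.08 SE, limma adjusted p = 0.00031. Of 13 KLF and SP factors, 3 fell, Klf5, Klf9 and Klf13, and 0 rose. Of 19 WNT pathway genes, 2 were called higher and 3 lower, beside 11.2% and 4.14% of all genes. Wnt7a had 0.3696, 0.365 and 0.1900 TPM in Kdm3aKO2, against 5.596, 8.305 and 6.61 TPM in WT (log2 change -2.57 ± 0.18 SE, limma adjusted p = 1.4e-07), and Wnt4 had 16.8, 16.7 and 13.1 TPM in Kdm3aKO2, against 5.096, 5.54 and 5.14 TPM in WT (log2 change 1.39 ± 0.13 SE, limma adjusted p = 2.2e-06). Among 24 TGF-beta and BMP genes, 3 were called lower and 1 higher, with 4 and 3 without WT replicate 3 and 2 and 0 without Kdm3aKO2 replicate 3. Bmp2, a bone morphogenetic protein, had 0.122, 0.0215 and 0.862 TPM in Kdm3aKO2, against 7.34, 9.93 and 8.52 TPM in WT (log2 change -2.89 ± 0.23 SE, limma adjusted p = 5.4e-07).

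The mucins Muc5ac and Muc5b rose. Muc5ac had 27.97, 27.6 and 35.5 TPM in Kdm3aKO2, against 4.13, 3.82 and 2.66 TPM in WT (log2 change 2.79 ± 0.37 SE, limma adjusted p = 0.0001). Muc5b had 16.1, 15.6 and 10.5 TPM in Kdm3aKO2, against 1.17, 0.932 and 1.999 TPM in WT (log2 change 2.67 ± 0.24 SE, limma adjusted p = 1.9e-06). Of 28 pancreatic and gastric identity genes, 4 were called higher and 3 lower, beside 11.2% of all genes called higher and 4.14% lower. With replicates 1 and 2 averaged, or without WT replicate 2 or Kdm3aKO2 replicate 1 or 2, 1 was called higher and 2 lower. Under median-of-ratios scaling 2 were called higher and 8 lower. Cell cycle and replication genes had 7 of 32 members called higher and 0 lower, but 1 higher and 1 lower under median-of-ratios scaling, 1 without WT replicate 2 or Kdm3aKO2 replicate 2, and 2 without Kdm3aKO2 replicate 1. Antioxidant genes had 7 of 25 called higher and 2 lower, against 3 higher and 3 lower under median-of-ratios scaling and 3 higher and 1 lower without Kdm3aKO2 replicate 1 or 2. Gpx2, an epithelial glutathione peroxidase, had 0.904, 1.74 and 0.871 TPM in Kdm3aKO2, against 8.37, 20.1 and 12.6 TPM in WT (log2 change -2.70 ± 0.26 SE, limma adjusted p = 3.4e-06), and Akr1c13, an aldo-keto reductase, rose by 1.49 on the log2 scale. Among 9 imprinted transcripts 3 were called lower, and 5 without Kdm3aKO2 replicate 3. Dio3os, the antisense partner of the thyroid hormone deiodinase Dio3, was called lower (log2 change -1.99 ± 0.16 SE, limma adjusted p = 7.2e-07), and its reads may be shared with Dio3. Cholesterol synthesis had 1 of 24 members called lower, and fatty acid synthesis had 0 of 14 called. In the p53 list, Fas was the 1 of 15 called; Cdkn1a and Mdm2 were not called. Of 24 genes of unfolded protein and amino acid stress, 3 were called higher and 1 lower, near the shares of all genes, but 0 and 3 under median-of-ratios scaling. Of 23 NF-kB targets, 5 were called higher and 1 lower, but 2 and 4 under that scaling. Of 5 sex chromosome transcripts, 0 were called, and 2 were called higher without WT replicate 3.

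**Figure D3:**
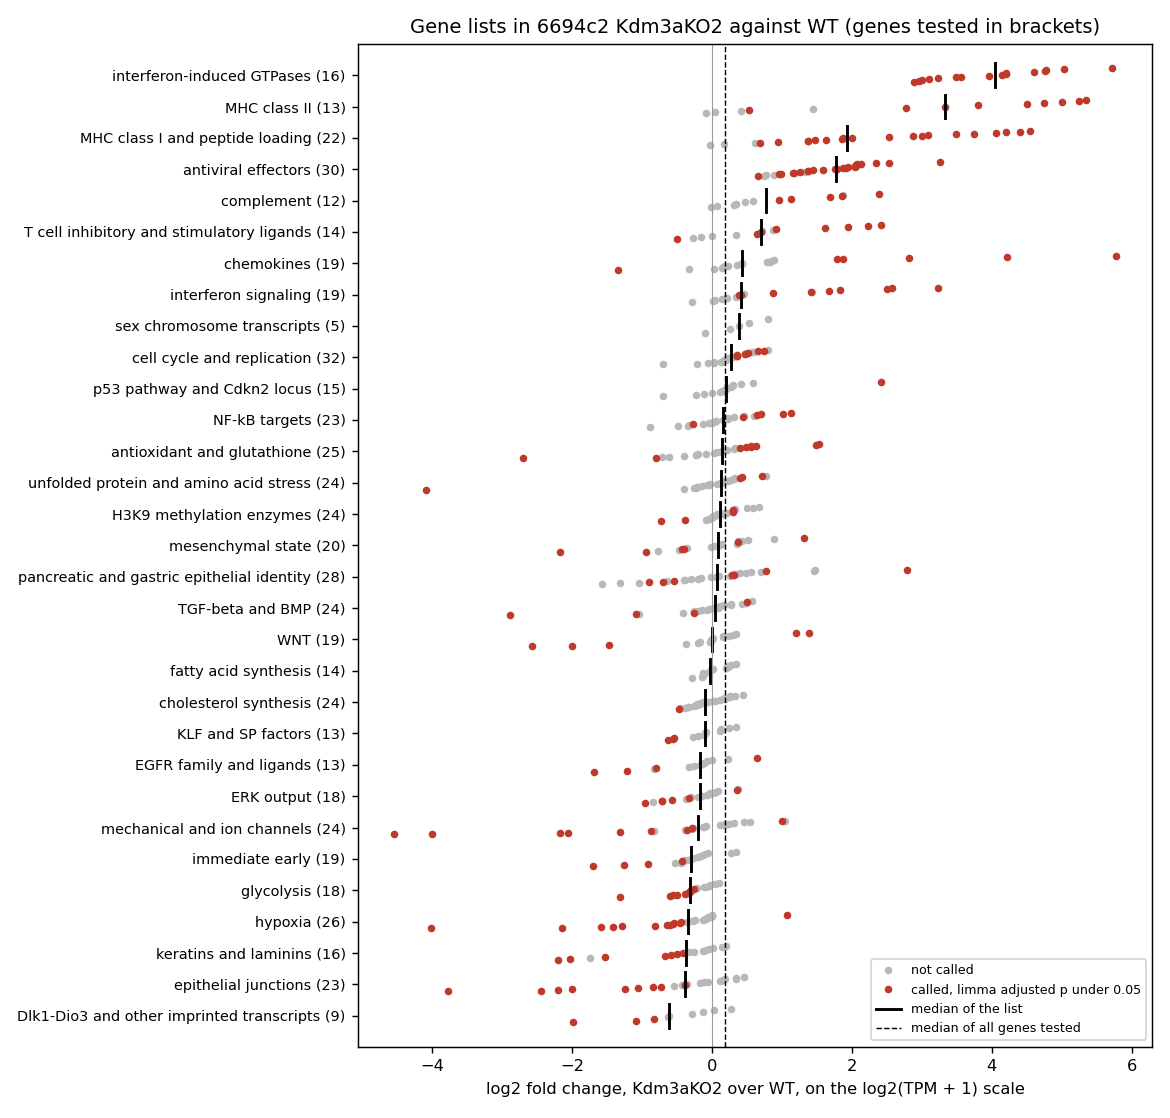
Log2 change between Kdm3aKO2 and WT of every tested member of the gene lists, in red where called and in grey where not, with a black bar at each list's median and a dashed line at the median of all genes. The median of the interferon-induced GTPases is 4.05 and that of the hypoxia list -0.34, against 0.18 for all genes.

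RNA of other cell types differed between libraries. The tumor epithelium markers, keratins, Epcam, Cdh1, Sox9 and Muc1, had a mean log2(TPM + 1) of 7.53, 7.50 and 7.15 in Kdm3aKO2, against 8.22, 8.33 and 8.16 in WT, with Krt7, Epcam and Muc1 called lower; the Muc1 call ended in 9 of 21 alternatives, among them leaving out any 1 Kdm3aKO2 library. Krt8, the main keratin of simple epithelia, had 3037, 2986 and 2306 TPM in Kdm3aKO2, against 3154, 3125 and 2504 TPM in WT, so epithelial transcripts were abundant in all 6 libraries. The summed TPM of the 10 macrophage markers was 417, 427 and 3398 in Kdm3aKO2, against 553, 1720.1 and 137 in WT (two-sided exact permutation test of the mean levels, p = 0.7), and none of the 10 was called. The level of 12 T and NK cell markers was 0.82, 0.72 and 1.36 in Kdm3aKO2, against 0.18, 0.35 and 0.22 in WT, without overlap, and p = 0.1 is the smallest that a two-sided exact permutation test of 3 against 3 can give. Neutrophil, dendritic cell and B cell markers were also higher in all 3 Kdm3aKO2 libraries, at 1.92 to 2.57, 1.11 to 1.72 and 0.33 to 0.78 in Kdm3aKO2, against 1.35 to 1.61, 0.51 to 0.97 and 0.07 to 0.13 in WT. Fibroblast markers were at 2.65, 2.53 and 4.61 in Kdm3aKO2, against 3.11, 2.53 and 2.90 in WT. The part of these cells in the interferon and antigen presentation groups was not tested. A fit with the macrophage level of each library as a covariate called 16 GTPases, 20 class I and 10 class II genes higher. This covariate holds no level of the other cell types, so the fit does not measure their part.

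Endothelial markers were at 1.47 to 2.01 in Kdm3aKO2, against 1.11 to 1.33 in WT, and erythroid markers at 1.13 to 2.18 in Kdm3aKO2, against 2.43 to 3.46 in WT, on the log2(TPM + 1) scale. The summed TPM of the 12 endothelial markers went the other way, at 81.9, 85.1 and 82.9 in Kdm3aKO2, against 88.0, 88.4 and 93.8 in WT. The lists of all leukocytes, alternatively activated macrophages, skeletal muscle, mast cells and basophils, acinar cells and adipocytes overlapped between the groups. All leukocytes were at 3.97 to 6.23 in Kdm3aKO2, against 2.96 to 4.79 in WT. Alternatively activated macrophages were at 4.58 to 7.10 in Kdm3aKO2, against 2.74 to 4.62 in WT. The other 4 lists lay between 0.36 and 2.06 in all 6 libraries.

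Single markers of other cells were also called. Chil3 and Chil4, chitinase-like proteins of alternatively activated macrophages, were called higher: Chil4 had 341, 342 and 329 TPM in Kdm3aKO2, against 19, 20.2 and 19.3 TPM in WT (log2 change 4.04 ± 0.97 SE, limma adjusted p = 0.011), and Chil3 had 17.9, 17.6 and 34.4 TPM in Kdm3aKO2, against 1.12, 0.596 and 1.797 TPM in WT (log2 change 3.45 ± 0.35 SE, limma adjusted p = 7.5e-06), both uncertain because the transcripts are alike. Retnla, another gene of those cells, had 21.9, 23.8 and 302 TPM in Kdm3aKO2, against 1.69, 2.38 and 1.478 TPM in WT (log2 change 4.30 ± 0.89 SE, limma adjusted p = 0.0044). The other 5 of the 8 markers of alternatively activated macrophages, Arg1, Mrc1, Ccl8, Cd209d and Folr2, were not called. Within each group Chil4 did not follow the 10 macrophage markers. Their summed TPM was 417, 427 and 3398 in Kdm3aKO2, against 553, 1720.1 and 137 in WT. Which cells hold the Chil4 transcripts was not tested. Mcpt8, a protease of basophils, had 42.9, 46.7 and 34.7 TPM in Kdm3aKO2, against 268, 196 and 205 TPM in WT (log2 change -2.40 ± 0.29 SE, limma adjusted p = 4.6e-05), whereas the mast cell protease Mcpt4 was not called. Other mast cell and basophil markers went the other way: Kit, Cpa3 and Fcer1a were higher in every Kdm3aKO2 library. These averaged below 1 TPM and were not tested, Cma1 was not called, and Ms4a2 overlapped between the groups. The hemoglobin gene Hbb-bt of red cells had 15.05, 17.5 and 4.13 TPM in Kdm3aKO2, against 32.1, 65.7 and 72.8 TPM in WT (log2 change -2.25 ± 0.52 SE, limma adjusted p = 0.0095). The neutrophil marker Ngp, the hemoglobin gene Hbb-bs and the acinar enzymes Cpa1, Pnlip, Amy2a5 and Cela2a were listed at 0 in all 6 libraries.

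**Figure D4:**
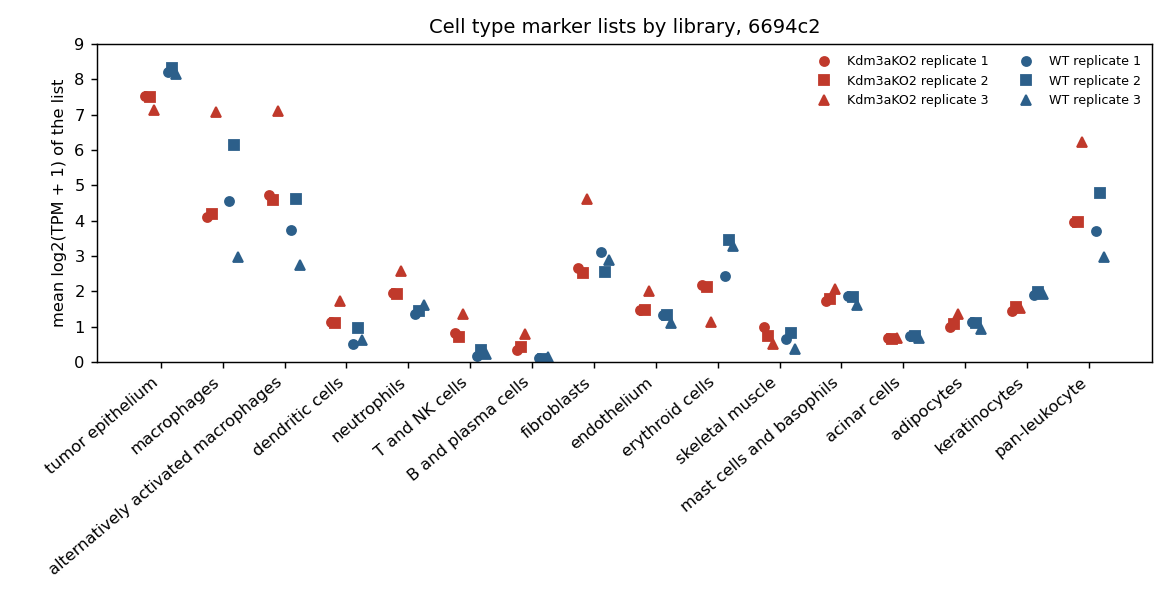
Mean log2(TPM + 1) of 16 cell type marker lists in each library, with Kdm3aKO2 left of WT. Macrophage markers reach 7.08 in Kdm3aKO2 replicate 3, and range from 2.97 to 6.15 in WT.

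Set against the other clone of the same line, Kdm3aKO2 differed at 1155 of 12839 genes (9%), 694 higher (5.41%) and 461 lower (3.59%), and at 310 genes with its replicates 1 and 2 averaged. Each clone's change from WT uses the same 3 WT libraries, so the clones are compared directly. The Kdm3aKO1 libraries held more macrophage RNA, with a marker level of 4.12, 4.19 and 7.08 in Kdm3aKO2, against 7.68, 7.13 and 7.27 in Kdm3aKO1, and with that level as a covariate 324 genes were called. The GTPases were called higher in Kdm3aKO2 in 8 of 16 members. Gbp4 had 44.7, 47.8 and 40.7 TPM in Kdm3aKO2, against 14.3, 20.6 and 20.4 TPM in Kdm3aKO1 (log2 difference 1.24 ± 0.18 SE, limma adjusted p = 0.0015), and Cxcl9 had 139, 142 and 127 TPM in Kdm3aKO2, against 38.1, 50.4 and 51.2 TPM in Kdm3aKO1 (log2 difference 1.54 ± 0.39 SE, limma adjusted p = 0.023). No class II gene was called higher than in Kdm3aKO1, and 1 of 13, Ifi30, a thiol reductase of antigen processing, was called lower at a log2 difference of -1.38. Cd74 had 1632, 1608 and 2633 TPM in Kdm3aKO2, against 2609, 1775 and 1706 TPM in Kdm3aKO1, and was not called between the clones.

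Several falls were deeper in Kdm3aKO2 than in Kdm3aKO1. Piezo2 had 0.661, 0.776 and 1.196 TPM in Kdm3aKO2, against 2.76, 3.05 and 2.31 TPM in Kdm3aKO1 (log2 difference -0.99 ± 0.19 SE, limma adjusted p = 0.0056). Slc16a3 had 4.49, 4.602 and 25.5 TPM in Kdm3aKO2, against 67.1, 51.6 and 51.2 TPM in Kdm3aKO1 (log2 difference -2.61 ± 0.44 SE, limma adjusted p = 0.0032), and 8 of 26 hypoxia genes were called lower than in the other clone. Epcam had 1.12, 0.825 and 0.745 TPM in Kdm3aKO2, against 7.56, 3.61 and 2.74 TPM in Kdm3aKO1 (log2 difference -1.48 ± 0.30 SE, limma adjusted p = 0.0083). Muc5b and Muc5ac were higher in Kdm3aKO2 by 1.79 and 1.89 on the log2 scale, and 16 of 32 cell cycle genes were called higher with 1 lower. The shares of all genes in this contrast were 5.41% higher and 3.59% lower. The neutrophil gene S100a9 had 8.66, 7.701 and 11.9 TPM in Kdm3aKO2, against 38.4, 98.6 and 98.97 TPM in Kdm3aKO1 (log2 difference -2.83 ± 0.56 SE, limma adjusted p = 0.0075), beside the macrophage levels given above.

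The change of Kdm3aKO2 from WT was also set against the mean change of the 2 knockout clones of line 6419c5 from their own WT, a comparison that shares no library. It differed at 788 genes (6.14%), 527 in the higher direction (4.1%) and 261 in the lower (2.03%), and at 489 with replicates 1 and 2 averaged. The interferon and antigen presentation rises were larger in Kdm3aKO2: 12 of 16 GTPases, 14 of 22 class I genes and 6 of 13 class II genes were called higher with 0 lower. The log2 change of Cd74 differed between the lines by 3.57 ± 0.68 SE, limma adjusted p = 0.0058. In 6419c5 the median log2 change of the class II genes was 2.56 in Kdm3aKO1 and 0.37 in Kdm3aKO2. The class I medians were 1.62 and 0.47, and the GTPase medians 2.85 and 1.96, in the same order. Macrophage markers had medians of 1.09 and -3.14, so the mean joins 2 unlike clones. The part of macrophage RNA in these differences was not tested. The hypoxia genes were called lower in 9 of 26 members with 0 higher, and their medians in the 6419c5 clones were 0.14 in Kdm3aKO1 and -0.04 in Kdm3aKO2.

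In 6419c5 Piezo2 averaged 7.85 ± 0.6197 TPM in Kdm3aKO1 and 10.5 ± 0.195 TPM in Kdm3aKO2, against 7.61 ± 1.68 TPM in WT (SD, n = 3 each). The difference between the lines' log2 changes was -4.78 ± 0.25 SE, limma adjusted p = 1.1e-07. Egfr, which fell in Kdm3aKO2 of 6694c2, averaged 22.1 ± 0.824 TPM in Kdm3aKO1 and 20.7 ± 1.16 TPM in Kdm3aKO2, against 19.5 ± 4.26 TPM in WT, in 6419c5 (SD, n = 3 each). The log2 change differed by -1.84 ± 0.28 SE, limma adjusted p = 0.0012. Tff2, a trefoil peptide of gastric mucus, was not called in 6694c2, at 468, 463 and 516 TPM in Kdm3aKO2, against 338, 381 and 316 TPM in WT. In 6419c5 it averaged 8.53 ± 2.48 TPM in Kdm3aKO1 and 74.9 ± 6.34 TPM in Kdm3aKO2, against 226 ± 64.6 TPM in WT (SD, n = 3 each), and the log2 changes differed by 3.54 ± 0.33 SE, limma adjusted p = 1.8e-05. For Kdm3a itself the 2 lines' log2 changes differed by 0.01 ± 0.27 SE, limma adjusted p = 0.98.

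Of 600 tested genes on chromosome 10, a chromosome chosen after its values were seen, 177 (29.5%) were called higher and 15 lower, beside 11.2% of all genes called higher. The count was 92 without Kdm3aKO2 replicate 2 (15.3%, beside 6.25% of all), 103 without Kdm3aKO2 replicate 1 and 102 with both averaged. The median level of the chromosome's genes relative to all genes of the same library was 0.10, 0.108 and 0.10 in Kdm3aKO2, 0.127, 0.106 and 0.10 in Kdm3aKO1, and -0.091, -0.099 and -0.091 in WT, on the log2 scale. Kdm3aKO2 and WT did not overlap, and the two-sided exact permutation test gave p = 0.1, its smallest value. Chromosome 4 also lay higher in Kdm3aKO2 without overlap, and chromosomes 8, 13 and 14 lower, each with the same p. Under median-of-ratios scaling 10% of the chromosome's genes were called higher, beside 4.86% of all. In windows of 50 neighboring genes the highest median, 0.52, lay at chr10:40033532-58424691 (GENCODE M21, GRCm38), where 12 genes were called higher and 1 lower. Among them Slc16a10, a carrier of aromatic amino acids, had 21.1, 22.7 and 19.8 TPM in Kdm3aKO2, against 8.32, 7.65 and 10.5 TPM in WT (log2 change 1.19 ± 0.13 SE, limma adjusted p = 2.0e-05). On chromosome 13, 51 of 498 genes (10.2%) were called lower, beside 4.14% of all genes, and 31 without Kdm3aKO2 replicate 2; the lowest window, chr13:21750194-23915009, holds the Hist1 histone cluster, with a median log2 change of -0.38 and 7 called lower, whose short transcripts carry uncertain values.

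**Figure D5:**
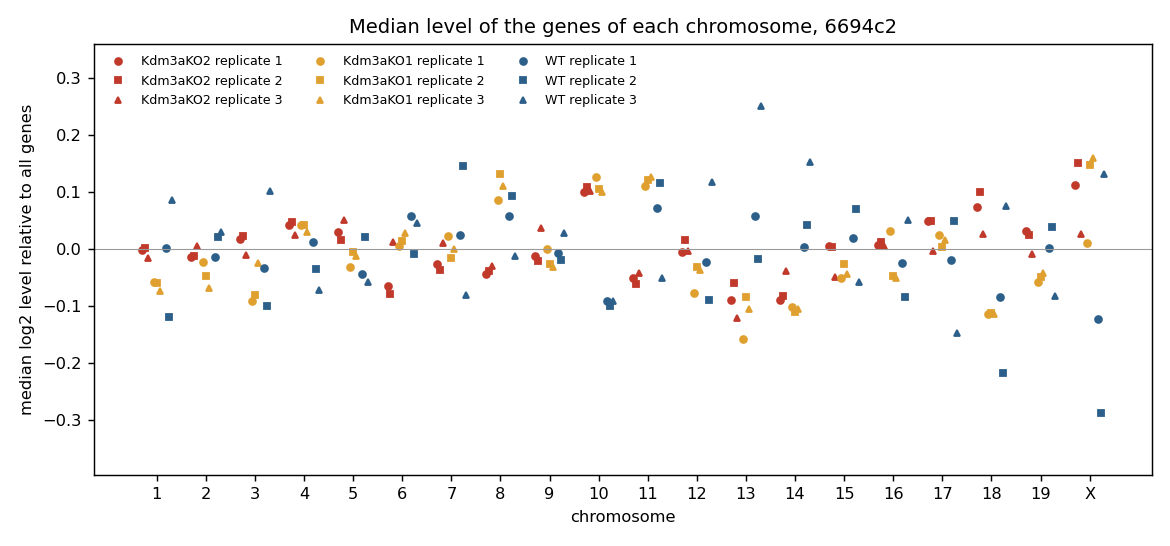
Median log2 level of each chromosome's tested genes relative to all genes of the same library, with Kdm3aKO2, then Kdm3aKO1, then WT. For chromosome 10 the Kdm3aKO2 libraries lie at 0.10 to 0.11, and the WT libraries at -0.099 to -0.091.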

How the data were processed

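Gene-level TPM values of 18 RNA-seq libraries, as deposited by the authors, were used; the submitters' processing notes name Salmon and mm10, with no version. TPM keep no read counts, so depth and counting error are unknown. The table's columns letter the clones A and B where the titles number them 1 and 2; A was read as 1 and B as 2. A batch named in the deposited table is not described by the labels. No value column was left unused (0).

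Values were transformed as log2(TPM + 1), genes averaging 1 TPM or more over the 6 libraries were kept, and limma 3.58.1 (R 4.3.3) was fitted to the 6 group means of all 18 libraries, with 12 residual degrees of freedom and a variance trend. P-values were adjusted by Benjamini-Hochberg over 12839 genes and called below 0.05. Just inside the filter lay March4 (1.00024 TPM), Vax2 and Pde1a, and just outside 6720489N17Rik (0.999183 TPM), Gm10677 and Naip5. Fold changes on this scale understate those of low genes. Values are in the order of replicates 1 to 3. The fit was also run on simulated data with 100 genes changed 2-fold and 100 changed 4-fold. It called 80% and 88% of them, and 2.89% of its calls were of unchanged genes. The simulated noise was independent between genes and libraries, so this run does not cover shifts of whole libraries or replicates that lie unusually close.

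Genes named are Kdm3a, Klf5, Egfr, Piezo2 and Ciita; the 20 largest called rises and falls whose groups did not overlap and whose higher group averaged 5 TPM or more; members of 31 gene lists and 16 marker lists; and the leading genes of the other contrasts. The members and lists were chosen with earlier results of these data known. Of 804 list genes, 798 were in the table; the others are not analysed here. Motifs were searched in RefSeq promoters. Alternatives covered pseudocounts, filters, scaling, the libraries in the fit, a replicate block, a macrophage covariate and leaving out each library.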

Additional observations from a re-analysis of the deposited data

Results flagged for a closer look

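For 16 genes the change of 6694c2 Kdm3aKO2 from WT differed most from the mean change of the 6419c5 knockout clones from their own WT, by the limma contrast of the 2 changes (adjusted p below 0.05 for each). On the log2 scale the difference was 4.08 for Olfm4, 3.67 for Ildr2, 3.57 for Cd74, 3.54 for H2-Eb1 and 3.54 for Tff2 in the higher direction. In the lower direction it was -4.78 for Piezo2, -3.69 for Ube2e2, -3.66 for Trib2, -3.46 for Slco3a1 and -3.33 for Mgp. Olfm4, a secreted glycoprotein of gut crypts, had 4.24, 4.95 and 0.952 TPM in Kdm3aKO2, against 0.145, 0.398 and 0.537 TPM in WT in 6694c2, while in 6419c5 it averaged 0.161 ± 0.167 TPM in Kdm3aKO1 and 0.04498 ± 0.0574 TPM in Kdm3aKO2, against 5.48 ± 1.52 TPM in WT (SD, n = 3 each). Ildr2, a receptor of the immunoglobulin superfamily, had 9.57, 9.64 and 9.36 TPM in Kdm3aKO2, against 1.01, 0.841 and 1.59 TPM in WT in 6694c2, while in 6419c5 it averaged 9.898 ± 2.84 TPM in Kdm3aKO1 and 0.09898 ± 0.0236 TPM in Kdm3aKO2, against 7.83 ± 1.19 TPM in WT (SD, n = 3 each). The other 6 are short RNA entries, whose TPM are uncertain: 4.65 for Mir3473d, 4.50 for Mir6907 and 4.42 for Snord58b in the higher direction, and -4.40 for Mir7013, -3.45 for Snord68 and -3.42 for Mir5103 in the lower.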

How the results depend on the processing

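The 1967 calls against WT became 839 with only the 2 groups in the fit, 1189 with Kdm3aKO2 replicates 1 and 2 averaged (chosen after seeing the data), and 1186 to 2674 when a library was left out, the highest without WT replicate 3 and the lowest without Kdm3aKO2 replicate 2. No shared gene changed sign in any of these. The macrophage covariate gave 2908 calls, 2210 higher and 698 lower. With the 20 most abundant genes removed, 877 genes were called higher and 746 lower, and with Mir6236 removed 1002 and 651. The 1155 calls against Kdm3aKO1 became 324 with the macrophage covariate, 310 with the replicates averaged and 315 to 1669 when a library was left out. The 788 calls against 6419c5 became 1481, 489 and 466 to 1036 in the same order. Deviations of same-numbered libraries from their group means correlated at r = -0.0009, -0.363 and -0.373. With 3 libraries per group, this cannot tell whether same-numbered libraries are pairs. Adding a replicate block gave counts of 1485, 737 and 504. Signs reversed for Cd209d (-0.63) and Folr2 (-0.59) with the macrophage covariate and for Col1a2 (-0.93) without the 3 libraries that stand apart; these 3 genes were not called in the comparison as reported, but were called in those alternatives (limma adjusted p = 0.039, 0.017 and 0.025). The cause of these shifts was not tested. Unknown depth limits statements on genes near 1 TPM.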
